A study of Oreochromis niloticus with 24 samples.

Results

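The subject is the difference between the 2 gonadotroph types of female Nile tilapia (Oreochromis niloticus, Lake Manzala strain). It was measured in 8 of the 24 libraries of the study, 4 of LH cells and 4 of FSH cells, taken by their labels, and over the 1849 genes of the female table. The fish were mature females that carry both a red fluorescent protein (RFP) under the LH promoter and a green fluorescent protein (GFP) under the FSH promoter, and the LH, FSH and negative fractions all came from such fish. Pituitaries were pooled (20 per pool in the series text), digested with trypsin and sorted by fluorescence-activated cell sorting (FACS) into RFP-positive LH cells, GFP-positive FSH cells and a negative fraction with neither label. Sorting was repeated 4 times per sex, and each replicate is a separate pool of fish. Libraries with the same replicate number were taken to come from 1 pool, which the labels do not state. Below, the sort of a replicate means the libraries of that number. A cell's type is given by its reporter alone, cells with both labels were not analysed here, and the negative fraction is a mixture of all other pituitary cells.

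LH and FSH are heterodimers of a common alpha subunit (CGA) and a beta subunit of their own. In mammals most gonadotrophs make both hormones, whereas in teleost fish the beta subunits are made in separate cells, which makes it possible to sort the cell types apart. Both types respond to gonadotropin-releasing hormone (GnRH) and other hypothalamic peptides, to dopamine and to gonadal steroids, and release hormone from granules after a rise in calcium.

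Levels are in normalized reads (NR), that is, read counts per gene over the size factor of the library. Reads on the genes of the table numbered 110893 to 275068 in LH, 146817 to 520458 in FSH and 69091 to 135385 in negative libraries, and 3 reads, taken as the limit of detection, equal 2.11 to 7.21 NR in these libraries. This limit covers counting error only. The table holds only genes that the study had selected as at least doubled over the negative fraction in LH or FSH cells: in 1827 of the 1849 genes the mean NR of either cell type was more than 2 times the negative mean. Genes expressed evenly in the pituitary are therefore not analysed here, and every share below is a share of selected genes. The common hormones of other pituitary cells, and the lists of lymphocyte, granulocyte, red cell and glia markers, had no member in the table. Since such genes too had to exceed the negative fraction, their absence does not show that these cells were absent. Replicates had a median SD of 0.43 in LH, 0.37 in FSH and 0.41 in negative libraries on the log2(NR + 1) scale.

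Most genes of the table separated the cell types, and more of them were higher in FSH cells. Of 1849 genes, 1333 (72.1%) were called, with LH cells higher in 453 (24.5%) and FSH cells in 880 (47.6%), at a log2 ratio beyond 1 and an adjusted p below 0.05 (limma on log2(NR + 1), Benjamini-Hochberg adjustment). All 4 LH libraries lay above all 4 FSH libraries in 445 genes (24.1%), and all FSH libraries above all LH libraries in 1011 (54.7%). Differences were larger on the LH side: 204 of the 453 genes exceeded a log2 ratio of 4, against 27 of the 880 genes higher in FSH cells. The median ratio was 3.77 in the former and -1.61 in the latter. In 217 of the 453 genes all FSH libraries were at or below 3 reads, which held for LH libraries in 29 of the 880. With such genes set to the ratio that 3 reads allow, the median of the 453 was 3.01.

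The balance between the directions depends on the scale. The median log2 ratio over all genes was -0.96, and over the 1549 genes above 0 in all 8 libraries LH libraries lay 0.86 lower. When each library was centred on its median gene, 508 genes (27.5%) were higher in LH and 298 (16.1%) in FSH cells, so that 63.0% of calls were on the LH side against 34.0% before. All 453 genes higher in LH cells and 298 of the 880 higher in FSH cells were called in both. The table's genes were selected, mostly for FSH cells, so a common median is no neutral reference; the authors' scale is used below, with counts after centring beside each gene list.

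**Figure D1:**
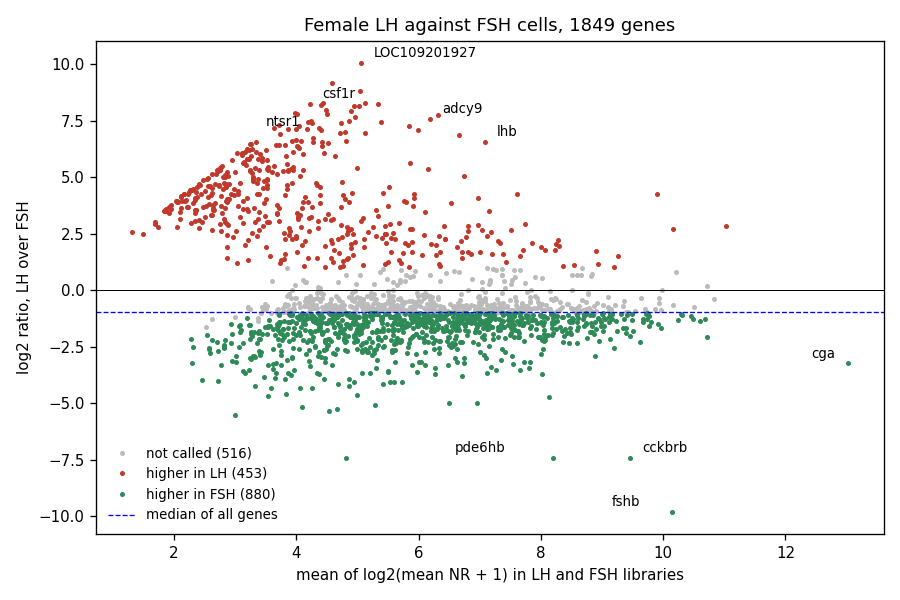
Log2 ratio of LH to FSH cells (y axis) against the mean log2 level over both cell types (x axis) for the 1849 genes of the female table, 1 point per gene. The 453 genes higher in LH cells (red) reach up to 10.06, the 880 higher in FSH cells (green) down to -9.81, and 516 genes (grey) were not called; the dashed line is the median of -0.96.

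The beta subunits marked the sorted cells, as the reporters they drive were used for sorting. The gene for lhb (LOC100534501, linkage group 13 from 5233419 to 5236091 of O_niloticus_UMD_NMBU) had 1678, 1123, 1035 and 1504 NR in LH replicates 1 to 4 and 13.3, 13.9, 12 and 11.8 in FSH replicates 1 to 4. Negative libraries held 2.74 to 12.3 NR, around or below the FSH libraries. The log2 ratio of FSH to negative was 0.93 (limma, adjusted p = 0.020), short of the ratio needed for a call. The log2 ratio of LH to FSH cells was 6.58 ± 0.36 (SE, n = 4 per group, adjusted p = 5.4e-12). The gene fshb (linkage group 1 from 10247789 to 10250820) had 35242, 30244, 24856 and 45449 NR in FSH libraries, 38.6, 23.6, 38.3 and 47.9 in LH libraries and 15.8 to 69.4 in negative libraries. Its ratio of -9.81 ± 0.34 (SE, n = 4, adjusted p = 1.2e-14) was the lowest of the table, and LH libraries did not differ from negative ones beyond their spread (0.28, adjusted p = 0.54).

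The common alpha subunit was unequal between the gonadotrophs. For cga (linkage group 19 from 13536066 to 13537615), FSH libraries held 24388, 21885, 15044 and 43236 NR and LH libraries 3484, 2411, 1806 and 2897. All FSH libraries were above all LH libraries, with a ratio of -3.24 ± 0.31 (SE, n = 4, adjusted p = 1.7e-08), and -2.37 after centring. Negative libraries, with 1514, 1918, 2949 and 1489 NR, overlapped the LH libraries, and the log2 ratio of LH to negative was 0.45 (adjusted p = 0.27). The negative fraction is no reference free of cga: the paper states that thyroid-stimulating hormone (TSH) shares this subunit and is strongly expressed there. In bulk samples fewer cells that make a transcript and less transcript per cell cannot be told apart.

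**Figure D2:**
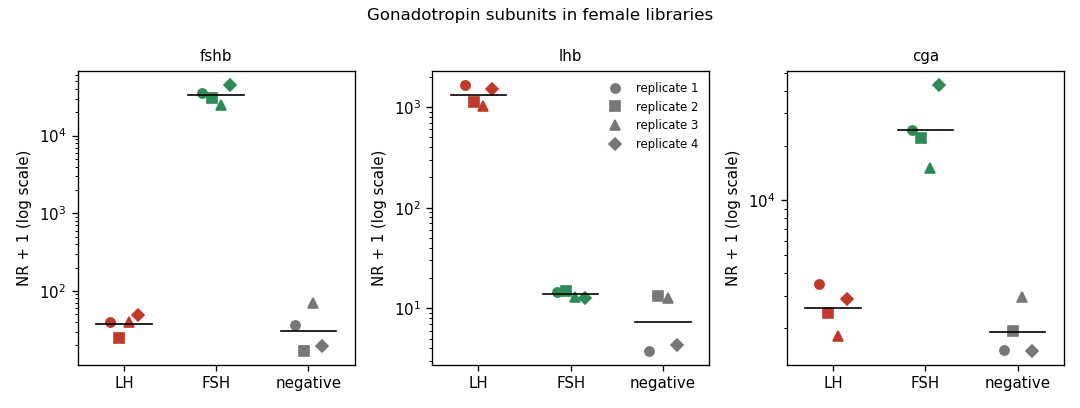
NR + 1 (log axis) of the 3 gonadotropin subunit genes in the 12 female libraries, 1 marker per library with its shape giving the replicate; the line is the mean on the log2 scale. FSH libraries hold 24856 NR or more of fshb and 15044 or more of cga, and LH libraries 1035 or more of lhb.

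Read against the negative fraction, the 2 directions had different forms. Of the 453 genes higher in LH cells, FSH cells were below the negative fraction in 347 and LH cells above it in 342, with both in 246. Of the 1849 genes, 18.8% were called lower in FSH than in negative cells, and none of these lay outside the 453, while 28.5% were called higher in LH than in negative cells. The median log2 ratio to the negative fraction was 1.38 in LH and -2.31 in FSH cells. Of the 880 genes higher in FSH cells, 860 were above the negative fraction in FSH cells and 21 below it in LH cells (69.7% and 1.14% of all genes were so called), and the medians were 1.76 in FSH and 0.09 in LH cells. For 58 of the 880, among them esr2, otof and gabbr1 below, LH cells also exceeded the negative fraction. The selection of the table fixes part of this, since each gene had to exceed the negative fraction in one of the cell types; the genes below it in the other cell type were not selected for that. The LH count rests on the sorts: without the libraries of replicate 4, 197 genes were above the negative fraction in place of 342.

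**Figure D3:**
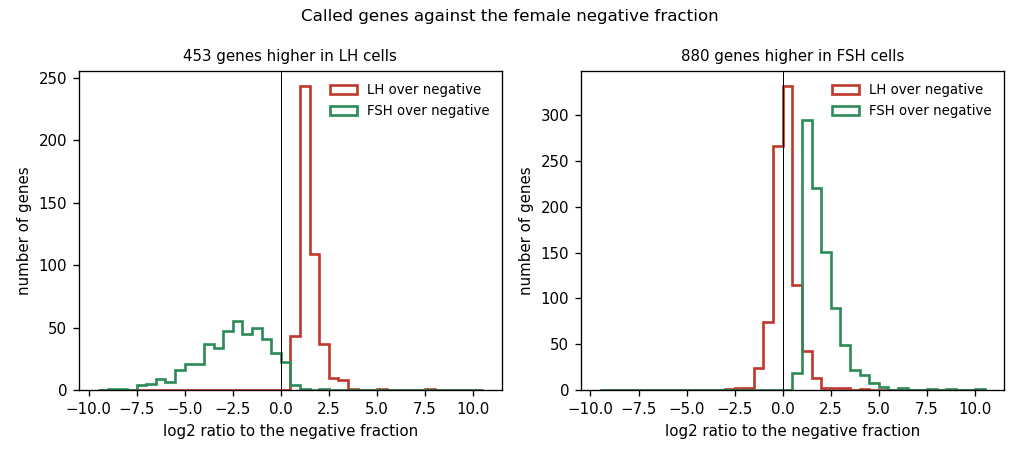
Number of genes (y axis) by log2 ratio to the female negative fraction (x axis, bins of 0.5), for LH (red) and FSH cells (green), among the 453 genes higher in LH cells (left) and the 880 higher in FSH cells (right). On the left the FSH cells spread to -8.87 below the negative fraction while LH cells centre on 1.38; on the right LH cells centre on 0.09 and FSH cells on 1.76.

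The genes with the largest ratios on the LH side were close to absent from FSH libraries and present in the negative fraction. LOC109201927, a gene without a name, had 852, 1729, 1039 and 836 NR in LH and 0 in every FSH library, at least 287-fold higher than the 3-read level of FSH libraries (adjusted p = 3.8e-17). Its negative libraries held 362 to 590 NR. In the annotation its span overlaps that of med9, and whether the counting used strand is not given in the sources used here. LOC100700404, likewise unnamed, had 425, 669, 632 and 576 NR in LH and 0 in FSH libraries (at least 148-fold). The chemokine gene ccl19a.1 (LOC100700187) had 678, 339.7, 1204 and 490 NR in LH libraries and at most 2.40 in FSH libraries (at least 175-fold). Next came pik3ap1, an adaptor of phosphoinositide 3-kinase in immune cells of mammals, with 229.5 to 512 against 0 to 0.91 NR, and the receptor-type tyrosine phosphatase ptprm with 321 to 845 against 0 to 3.51. The transcription factors runx3 (446 to 794 against 0 to 2.40 NR) and prdm1b (LOC100700828, 174 to 811 against 0 to 1.81) act in blood cell development in mammals. The unnamed LOC100707040 and LOC102076298 had 149.5 to 638 and 357 to 648 NR in LH libraries, with at most 2.71 in FSH libraries. Log2 ratios of these 10 genes, csf1r below included, ran from 8.15 to 10.06.

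One LH library had a pattern of its own among these genes. LH replicate 2 was the lowest LH library in 252 of the 453 genes higher in LH cells (55.6%), against 29.4% of all genes, and the highest in 120. It was lowest for csf1r, ccl19a.1, pik3ap1, runx3, prdm1b and LOC100707040 and highest for LOC109201927, LOC100700404, ptprm and LOC102076298. Without this library 451 genes were called higher in LH and 911 in FSH cells.

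Markers of macrophages moved with the LH side. All 11 members of the macrophage and microglia list in the table had higher levels in LH cells and 0 in FSH cells by the same call (limma; 0 also at an unadjusted p below 0.05, with edgeR and with DESeq2), with a median log2 ratio of 4.92 (3.85 with genes at the detection limit set to their bound) beside -0.96 for all genes. LH cells exceeded the negative fraction in all 11 and FSH cells in 0, so the selection could admit these genes only through LH cells. It thus fixed their direction, and the count is a description. Further markers that were searched for, such as mpeg1, ptprc, irf8 and tyrobp, were not found in the table, so the 11 are not the whole set. The receptor gene csf1r, which macrophages need to survive, had 359, 104, 446 and 498 NR in LH libraries, 0 in all 4 FSH libraries and 18.3, 36.8, 60.0 and 26.4 in negative libraries. It was thus at least 90.7-fold higher in LH than in FSH cells. The log2 ratio of LH to negative cells was 3.19 for csf1r, a contrast on which the table was selected. The lipid carrier gene apoeb (LOC100699941) had 969.7, 416, 1581 and 1552 NR against 0.91 to 9.61, and complement c1qb (LOC100693084) 224, 55.1, 241 and 273 against 0 to 1.16. Their ratios were 7.76 (7.13 without the sort of replicate 4) and 7.13 (7.94 without that of replicate 2). The invariant chain gene cd74b (LOC100706178), which serves antigen presentation, had 5312, 2259, 5143 and 4064 NR in LH and 133 to 294 in FSH libraries, and the chemokine receptor gene xcr1a.1 (LOC100691705) 34.1 to 108 and 0 to 2.81. The summed level of the 11 genes was 13887, 6079, 14779.8 and 12205 NR in LH replicates 1 to 4, 675 to 1330 in FSH and 3037 to 4533 in negative libraries. LH libraries were all above and FSH libraries all below the negative ones, and LH replicate 2 held the least of the LH libraries. Some members, such as apoeb and cd74b, are also made by other cells, and the part of these cells in the other genes higher in LH cells was not tested.

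Few markers of other cell types are in the table. They had to exceed the negative fraction, which holds such cells, so their number does not measure how many were sorted. Of 3 endothelial markers, kdrl (LOC100707615), a receptor of vascular endothelial growth factor, was higher in LH cells (26.9 to 178 against 0 to 16.3 NR, 4.57, or 5.49 without FSH replicate 4), as was sox17 (23.6 to 63.8 against 0). The adhesion gene esamb (LOC100700226) was higher in FSH cells (4.8 to 22.6 against 1.31 to 5.47, -1.92, or -2.61 without the sort of replicate 3). The esamb libraries overlapped, and its call was lost after centring (-1.06, limma, adjusted p = 0.11). After centring, 2 of the 3 were thus higher in LH and 0 in FSH cells. The sum of the 3 was 74.0 to 203 NR in LH, 4.80 to 38.9 in FSH and 29.2 to 72.5 in negative libraries. Of the mural and fibroblast markers a collagen alpha-2(V) gene (LOC100707060) was higher in LH cells and dcn was not called, and the stem-like cell marker fabp7a (LOC100690908) was higher in LH cells (10.1 to 38 against 0 to 6.32 NR, 2.65, or 2.05 without FSH replicate 3). The part of these cells in the result was not tested.

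The FSH side was led by fshb, a phosphodiesterase subunit and a cholecystokinin receptor. For pde6hb (LOC100690909), which codes for an inhibitory subunit of the cone phosphodiesterase, FSH libraries held 2683, 3532, 2688 and 7075 NR and LH libraries 16, 26.2, 20.0 and 20.2 (ratio -7.43 ± 0.33, SE, n = 4, adjusted p = 3.1e-13). The cholecystokinin receptor gene cckbrb (LOC100700667) had 9668, 10030.4, 6476 and 9130.3 NR in FSH and 88.8, 66.9, 38.3 and 27.7 in LH libraries (-7.41 ± 0.34, adjusted p = 5.5e-13). Negative libraries held 7.06 to 22.8 NR of pde6hb, with a log2 ratio of LH to negative of 0.41 (adjusted p = 0.34), and 8.23 to 28 of cckbrb, which LH cells exceeded (1.44, adjusted p = 0.0036). Tgfbr3, the co-receptor of TGF-beta and inhibin, had 710.1, 677, 641 and 761 NR in FSH and 14.6, 19.7, 21.9 and 28.6 in LH libraries (-5.01 ± 0.25, adjusted p = 1.3e-12). The gene gdnf, for a neurotrophic factor of the TGF-beta superfamily, had 86.4 to 161 against 0 to 9.11 NR, with a log2 ratio of -5.36 (-5.95 without LH replicate 3).

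The FSH list of the 10 largest ratios also held 3 genes annotated as tumor necrosis factor alpha-induced protein 2 in the study's tables. LOC100693617 had 228 to 417 NR in FSH and 0 to 4.37 in LH libraries, LOC109195942 40.8 to 73.3 and 0 to 0.73, and LOC109195943 69.7 to 129.9 and 0.73 to 5.47. The spans of LOC100693617 and LOC109195942 overlap, so their reads cannot be assigned with certainty, and near-identical copies may have shared reads. The unnamed LOC100697557 and LOC102080780 completed it, with 112 to 168 and 127 to 286 NR in FSH libraries and ratios of -5.25 (-4.64 without LH replicate 2) and -5.08. FSH replicate 4 was the highest FSH library in 358 of the 880 genes (40.7%), against 35.7% of all genes, including fshb, cga and pde6hb; without it 836 genes were called higher in FSH cells.

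**Figure D4:**
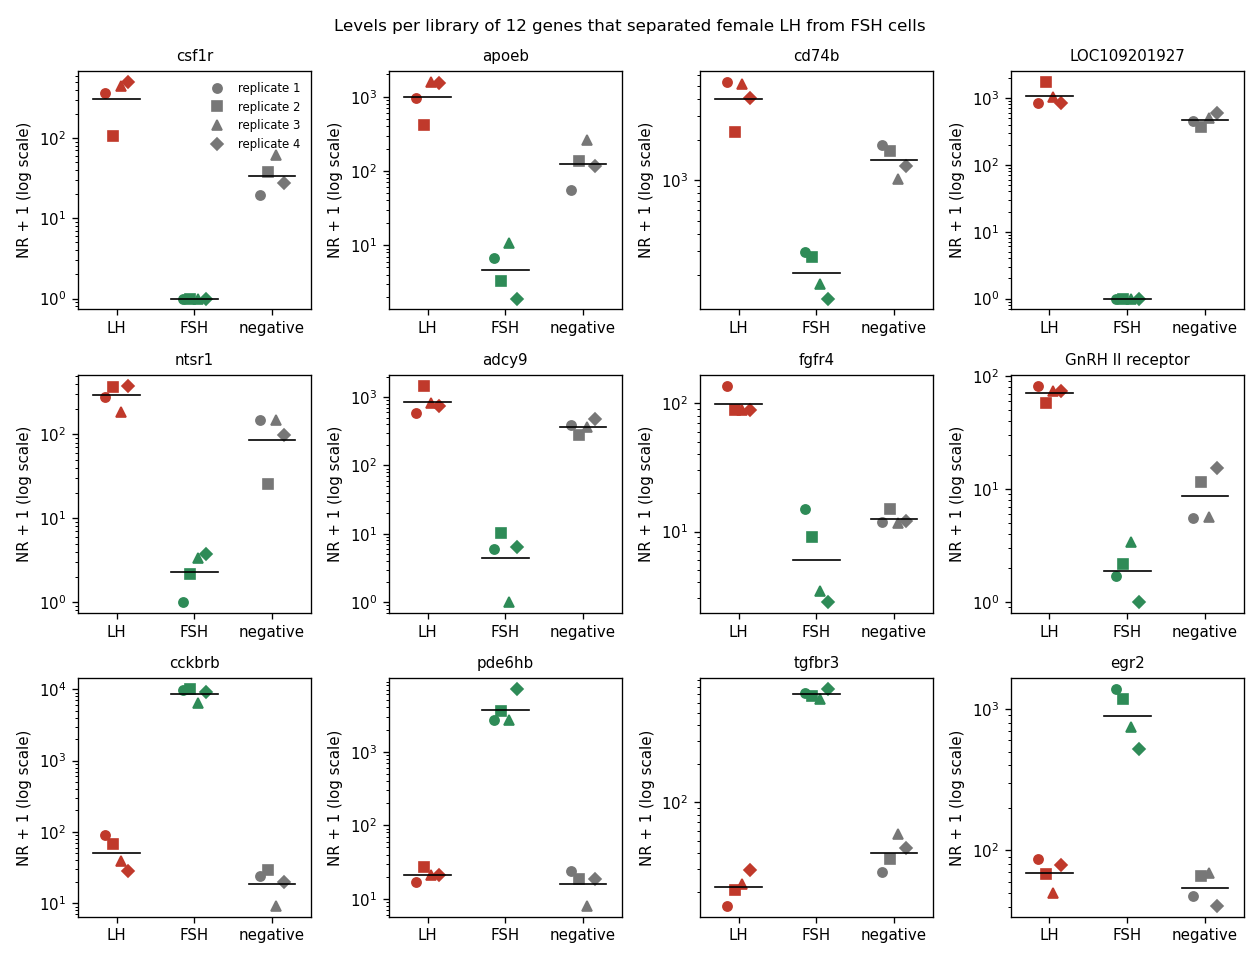
NR + 1 (log axis) in the 12 female libraries for 12 genes, 1 marker per library with its shape giving the replicate; the line is the mean on the log2 scale. The upper 8 genes are higher in LH and the lower 4 in FSH cells; csf1r and LOC109201927 are at 0 in every FSH library, and LH replicate 2 (square) is the lowest LH library for csf1r, apoeb and cd74b and the highest for LOC109201927 and adcy9.

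Most genes of the peptide receptor list were called higher in one or the other cell type. The counts of each gene list below are to be read against the shares over all genes, which are 24.5% higher in LH and 47.6% in FSH cells, or 27.5% and 16.1% after centring. Of 13 genes on the peptide receptor list, 7 were called higher in LH and 5 in FSH cells (7 and 4 after centring), with a median of 3.66 (2.79 with bounds) beside -0.96 for all genes. The study had named all 13 as receptors of female LH or FSH cells from these same libraries, so their split is a description and no independent result. The same holds for the lists of amine, nucleotide and lipid, class C and adhesion receptors below. The 7 include ramp2 (4.50), which codes for a receptor activity-modifying protein and not for a receptor. The table held 2 GnRH receptor genes, which were opposite in direction: a putative GnRH II receptor gene (LOC100534508) had 81.5, 56.4, 72.9 and 72.3 NR in LH and 0.70, 1.16, 2.40 and 0 in FSH libraries, at least 18.2-fold higher (adjusted p = 3.9e-09). Its log2 ratio of LH to the negative fraction, at 4.57 to 14.3 NR, was 3.04, a contrast on which the table was selected. The type 2 GnRH receptor gene (LOC100534509) had 21.8, 16.3, 62.5 and 108 NR in FSH and 4.37, 5.25, 7.29 and 5.04 in LH libraries (-2.66 ± 0.50, SE, n = 4, adjusted p = 8e-05), with negative libraries at 6.39 to 21. The first separated the groups widely; the second was spread over the FSH libraries, high in replicates 3 and 4.

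Higher in LH cells were also the neurotensin receptor ntsr1 (281, 365, 184 and 382 NR against 0 to 2.72, at least 78.1-fold) and adcyap1r1b (LOC100710530), a receptor for pituitary adenylate cyclase-activating polypeptide (237, 365, 148 and 382 against 0 to 2.72, at least 72.9-fold). The angiotensin receptor agtr1 (23.7 to 81.3 NR) was at 0 in all FSH libraries, and a galanin receptor type 2 (LOC102077197) had 16.7 to 35.4 against 0 to 2.40. All 4 were present in negative libraries, with log2 ratios of LH to negative of 1.75, 1.53, 1.81 and 1.46. On the FSH side, besides cckbrb, the receptors were a type 5 somatostatin receptor (LOC100710302, 125 to 149 against 27.3 to 40.0 NR), the orphan receptor gpr37 (26.4 to 82.4 against 3.93 to 14.6) and LOC100710271, a low gene (1.81 to 22.1 against 0.73 to 4.20) whose span overlaps that of adcyap1r1b. The call of the last (-1.51, adjusted p = 0.047) was lost without LH replicate 1 (-1.14) or 3 (-1.61) and without FSH replicate 1 (-1.22), 2 (-1.15) or 3 (-1.52), and without FSH replicate 4 the ratio was -2.16. The neuropeptide FF receptor npffr2 was not called (-0.34 ± 0.36, 95% interval -1.08 to 0.41).

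Receptors for amines, nucleotides and lipids were divided 5 to 4 among 10 genes (5 and 3 after centring; median 0.39). The prostaglandin receptor ptger1a (LOC102080433) had 69.9, 122, 65.6 and 69.8 NR in LH and 0 to 1.40 in FSH libraries, and a muscarinic receptor of subtype 4 (LOC100534567) 30.2 to 46.2 and 4.53 to 9.29. Dopamine receptors differed among themselves: drd2 was higher in LH cells (21.9 to 51.2 against 9.61 to 26 NR, 1.04 ± 0.36, adjusted p = 0.013), drd5 in FSH cells (21.8 to 36 against 1.46 to 3.64, -3.06 ± 0.51), and drd4-rs (LOC100704531) was not called (-0.27 ± 0.31, interval -0.92 to 0.39). The call of drd2 was lost without LH replicate 1 (0.94) or 2 (0.85) and without FSH replicate 3 (0.80) or 4 (0.89), and that of htr1b without the sort of replicate 3 (-1.11). The serotonin receptor htr1b (-1.25) and a P2Y14 receptor (LOC102076535, 10.4 to 54.3 against 0 to 1.46 NR) were higher in FSH cells. The nucleotide receptors p2ry6 and p2ry12 (LOC100692921), both also on the macrophage list, were higher in LH cells (3.23 and 3.46).

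Of 8 receptors of class C, the family of the metabotropic receptors for glutamate and GABA, 4 were higher in FSH cells (3 after centring), about the share of all genes (47.6%), and 0 in LH cells by limma. The 8 include the orphan members gprc5a (called) and LOC100712211 (not called). At an unadjusted p below 0.05, and with edgeR or DESeq2 on the recovered reads, 0 were higher in LH cells as well. Grm5 had 443, 603, 295 and 229 NR in FSH and 30.6, 39.3, 18.2 and 19.3 in LH libraries (-3.79 ± 0.32, SE, n = 4, adjusted p = 3.5e-09), grm7 (LOC100705106) 16.3 to 23.5 and 0 to 2.62, and the orphan gprc5a 27.4 to 121 and 0 to 5.47. The GABA-B subunit gene gabbr1 had 320.3, 124, 142 and 108 NR in FSH and 124, 48.5, 36.4 and 86.6 in LH libraries, which overlap (-1.24 ± 0.45, adjusted p = 0.015); the call was lost without FSH replicate 1 (-0.90) or LH replicate 3 (-0.96). Its paralog gabbr1a (LOC100695498) was not called (-0.47), nor was gabbr2 (-0.64). Of 5 adhesion receptors 2 were higher in LH cells (3 after centring) and 2 in FSH cells (1 after centring). An adhesion receptor B1 gene (LOC100705251) had 1111, 1810.1, 885 and 688 NR in LH and 5.62 to 9.61 in FSH libraries (6.87 ± 0.28), and adgrl1a (LOC100698301), a latrophilin, 23.5 to 40.1 and 122 to 171.

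Receptors for steroids did not move together. Of 11 nuclear receptors 6 were higher in LH and 4 in FSH cells (6 and 1 after centring; median 1.44). The progesterone receptor pgr had 26.2, 18.4, 12.8 and 14.3 NR in LH libraries and 0 in every FSH library, at least 4.62-fold higher than the detection level (adjusted p = 5.1e-07), with 0 to 2.35 in negative libraries. The estrogen receptor esr2 was higher in FSH cells (155, 189, 245 and 279 NR against 71.3, 85.3, 94.7 and 88.3; -1.31 ± 0.30, adjusted p = 0.00056) and was above the negative fraction, at 2.74 to 8.75 NR, in both cell types. The androgen receptor paralogs ar (43.2 to 49.9 against 11.8 to 21.9 NR) and ara (95.1 to 244 against 45.9 to 85.7) were higher in FSH cells with ratios of -1.49 and -1.14, and the call of ara was lost without FSH replicate 1 (-0.87) or LH replicate 2 (-0.98). An orphan receptor annotated as a steroid hormone receptor (LOC100690064) had 147 to 203 NR in FSH and 5.04 to 14.6 in LH libraries (-4.16); it was the 1 receptor of these 4 still called after centring. Nr4a2 (454, 607, 364 and 423 NR against 7.21 to 11.9) and nr4a3 (2804, 3802, 3354 and 1924 against 365 to 600.3), orphan receptors that are induced within minutes of stimulation in mammals, were higher in LH cells (5.39 and 2.73). So were pparg (5.33) and rxrgb (LOC100706800, 3.18). Hnf4a was not called (-0.26 ± 0.39, interval -1.09 to 0.56, and 0.60 after centring) and exceeded the negative fraction in each.

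Ion channels were divided by family and by member. Of 10 potassium channel genes 8 were higher in FSH cells and 1 in LH cells (4 and 1 after centring; median -1.77, against -0.96 for all genes). Kcnab1, for a subunit that modulates voltage-gated channels, had 91.3, 84.7, 69.7 and 80.6 NR in FSH and 1.46, 2.62, 5.47 and 4.20 in LH libraries (-4.30 ± 0.37, SE, n = 4, adjusted p = 4.8e-09). Kcnh6a (LOC100702614), of the ERG family, had 689 to 997 against 216 to 429 NR (-1.56). The exception was the two-pore channel kcnk13, with 26.9 to 65.6 NR in LH libraries and 0 in every FSH library. Of 19 calcium and sodium channel genes 11 were higher in FSH and 3 in LH cells (2 and 4 after centring, so that the order of the directions turned), and their median of -1.15 was near that of all genes. The calcium channel subunits cacna2d1 (209, 175, 156 and 244 NR against 9.46, 11.8, 12.8 and 9.25, -4.05) and cacna1ia (LOC100696380, -2.71) were higher in FSH cells. Higher in LH cells were trpv1 (LOC100701681, 69.2, 36.7, 122 and 77.3 NR against 0 to 0.70), the cation channel trpc4a (LOC100695568, 3.02) and cacna2d3 (LOC100694025, 23.6 to 86.6 against 0 to 2.40 NR, 4.53, or 3.89 without the sort of replicate 1). The most abundant member, the R-type calcium channel cacna1ea (LOC100706720), had 1168 to 2611 NR in LH and 1247 to 1834 in FSH libraries, which overlap (0.17 ± 0.26).

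Ligand-gated channels separated by subunit on the authors' scale. After centring, gria1 (-0.65) and gabrb2 (-0.37), below, were no longer called. Of 7 genes 3 were higher in LH cells and 3 in FSH cells (3 and 1 after centring). Among AMPA-type glutamate receptor subunits gria2 (77.9, 102, 69.2 and 93.3 NR against 0 to 4.8, 5.60, or 6.26 without the sort of replicate 3) and gria4a (LOC100706002, 315 to 624 against 31.6 to 63.9, 3.52) were higher in LH cells, and gria1 (92.9 to 122 against 273 to 326, -1.51) in FSH cells. For GABA-A subunits gabrd was higher in LH cells (3.71) and gabrb2 in FSH cells (-1.23), a call that was lost without LH replicate 1 (-1.05). The gap junction gene gjd2 had 279 to 609.9 NR in LH and 247 to 543 in FSH libraries (0.02 ± 0.29, interval -0.58 to 0.61).

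Signalling genes included large differences in both directions. Of 29 genes for cyclic nucleotide, calcium and G protein signalling 15 were higher in FSH and 7 in LH cells (10 and 9 after centring; median -1.16), near the shares of all genes on the authors' scale (47.6% and 24.5%). The adenylate cyclases differed: adcy9 had 592, 1472, 809 and 734 NR in LH and 4.92, 9.29, 0 and 5.43 in FSH libraries (7.58 ± 0.48, adjusted p = 5.6e-11, and 6.86 without FSH replicate 3), whereas adcy1a (LOC100702846), a calcium-sensitive cyclase, had 128 to 213 in FSH and 22.6 to 31.5 in LH libraries (-2.73). Phosphodiesterase 6 subunits were opposite in direction. Pde6g was at 141, 173.1, 69.2 and 179.9 NR in LH and 0 to 2.40 in FSH libraries (6.38, or 7.05 without the sort of replicate 3), whereas pde6hb, above, was higher in FSH cells. Pde2a (-2.40) and pde7b (-2.35) were higher in FSH cells, and the kinase gene prkcq (17.1 to 58.3 against 0 to 0.70 NR) and the calmodulin regulator pcp4 (28.6 to 38 against 0 to 1.16) in LH cells. Another gene, which the study annotated as PCP4 and named from these samples (LOC100703182), was not called, with libraries that overlap (0.39 ± 0.56).

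Genes of secretory granules and exocytosis had members in both directions. On the authors' scale 20 of 36 were higher in FSH and 2 in LH cells, with a median of -1.20 near that of all genes, and after centring 5 and 4. Otof (otoferlin), a calcium sensor of exocytosis in hair cells, had 773, 1082, 961 and 653 NR in FSH and 161, 193, 149 and 177 in LH libraries (-2.32 ± 0.20, adjusted p = 4.5e-09), and both exceeded the negative fraction at 29.7 to 38.8. Secretogranin scg2b (LOC100697209) had 1316, 1363, 1424 and 2999.7 NR against 273 to 496 (-2.29), and the calcium sensor syt1 1146 to 1768 against 259 to 546 (-1.79). The exceptions were another calcium sensor, syt7a (LOC100690092, 439, 892, 552 and 852 NR in LH against 121 to 156 in FSH libraries, 2.24), and chgb (50.2, 56.4, 47.4 and 265 against 12.8 to 42.6, 1.67), in which LH replicate 4 stood far above the other LH libraries and without which the ratio was 1.08. The granule protein scg3 was not called, with overlapping libraries (-0.38 ± 0.24).

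The TGF-beta list, of ligands, receptors and genes with similar names, had 7 members, 4 called higher in LH and 3 in FSH cells (4 and 2 after centring; median 3.12, or 1.89 with bounds). It counts tgfbi on the LH side by its name and leaves out gdnf, above, on the FSH side, so that the balance rests on its membership. Besides tgfbr3, the ligand tgfb1a (LOC100694653) had 1413, 1220.1, 1182 and 1334 NR in FSH and 394, 286, 328 and 393 in LH libraries (-1.88 ± 0.18, adjusted p = 1.3e-08). The activin subunit gene inhbb (LOC100705058) had 17.5, 23.6, 16.4 and 18.5 NR in LH and 0 to 2.40 in FSH libraries, at least 4.9-fold higher, and gdf11 (LOC100534493) 10.9 to 43.3 against 0 to 2.72 (3.61, or 3.0 without the sort of replicate 2 and 4.22 without that of replicate 3). The matrix protein gene tgfbi, induced by TGF-beta in mammals, had 35.4 to 154 against 0 to 2.40 NR (5.33, or 5.96 without the sort of replicate 2).

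Of 12 growth factors, peptides and other secreted signals 6 were higher in FSH and 3 in LH cells (4 and 3 after centring; median -1.20), about the shares of all genes (47.6% and 24.5%). Igf1 had 34.9, 35.4, 21.9 and 31.1 NR in LH and 2.81, 4.64, 0 and 0.91 in FSH libraries (3.63 ± 0.48, adjusted p = 1.3e-06). The platelet-derived growth factor pdgfbb (LOC100707172) was at 38.3 to 93.1 against 0 to 0.91 NR and fgf18a (LOC100704516) at 51 to 95 against 0 to 3.48. On the FSH side were fgf10a (LOC100700362, 25.5 to 76.1 NR against 0 to 2.52), adm2a (LOC102077161), a peptide of the calcitonin family (622 to 1176 against 253 to 459), and nrg2a (LOC100711745, -2.06). Fgf13b (LOC100710934, -3.0) belongs to the fibroblast growth factors that stay in the cell. The peptide gene apln was not called (-0.37 ± 0.39), and its log2 ratio to the negative fraction was 3.07 in LH and 3.43 in FSH cells. The study named fgfr4 (LOC100692465), a receptor of this family, from these samples; it had 137, 87.9, 87.5 and 88.3 NR in LH and 14, 8.13, 2.40 and 1.81 in FSH libraries (4.04 ± 0.44, adjusted p = 1.1e-07).

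Of 21 transcription factors of the pituitary and endocrine cells, 14 were called higher in FSH and 2 in LH cells on the authors' scale (median -1.27, against -0.96 for all genes), but 4 and 3 after centring, where 16.1% of all genes were higher in FSH cells. The 2 on the LH side were sox17, also on the endothelial list, and egr3, also on the immediate early list. Insm1, a zinc finger factor of endocrine cells, had 407, 381, 519 and 683 NR in FSH and 44.4, 30.2, 40.1 and 37 in LH libraries (-3.65 ± 0.29, SE, n = 4, adjusted p = 1.2e-09). Foxl2 (foxl2a), which drives gonadotroph genes in mammals, was at 339 to 453 against 74.7 to 118 NR (-1.91) and exceeded the negative fraction in both (2.99 in FSH and 1.09 in LH cells). Neurod1 was at 1055 to 1426 against 286 to 412 NR (-1.68). Among immediate early and heat shock genes, which also respond to cell handling, 4 of 12 were higher in FSH and 3 in LH cells (1 and 5 after centring). They moved in opposite directions within a family: egr2 had 1379.5, 1179.5, 745 and 524 NR in FSH and 85.2, 66.9, 49.2 and 77.3 in LH libraries (-3.69), and egr3 340, 264, 178 and 125 and 563, 576, 499 and 245 (1.08, with groups that overlap). The call of egr3 was lost without LH replicate 1 (0.96) or 2 (0.95) and without FSH replicate 3 (0.99) or 4 (0.83).

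Matrix and adhesion genes separated by single members. Of 14 matrix genes 4 were higher in LH and 6 in FSH cells (4 and 3 after centring). Among collagen XXVII paralogs col27a1b (LOC100698351) had 408, 917, 687 and 849.7 NR in LH and 2.11 to 5.43 in FSH libraries (7.27 ± 0.30, adjusted p = 1.2e-13), and col27a1a (LOC100694254) 5.04 to 14.6 and 37.1 to 58.3, while col27a1 was not called, with 25.5 to 76.1 and 55.2 to 110.5 NR and libraries that overlap (-0.74 ± 0.37, or a call at -1.0 without LH replicate 2). The thrombospondin gene thbs4a (LOC100693277) and the collagen alpha-2(V) gene were higher in LH than in FSH and negative cells. Thbs4a had 50.2, 24.9, 34.6 and 45.4 NR in LH against 0 to 4.21 in FSH and 0 to 5.25 in negative libraries, and the collagen 160.2, 95.8, 133 and 124 against 5.43 to 37.2 and 1.83 to 3.53. The study named both from these samples, and the table was selected on the contrast with the negative fraction. FSH cells were also called above the negative fraction for the collagen (log2 ratio 2.04). The protease adamts8 was higher in FSH cells (119.6 to 313 NR against 4.37 to 14.4). Of 19 cadherins and other adhesion proteins 9 were higher in FSH cells, about the share of all genes, and 1 in LH cells (5 and 2 after centring), led by cdh16 (38.4 to 67 NR against 0 to 2.91) and the integrin itga5 (LOC100711983, -3.62). Of 14 axon guidance genes 9 were higher in FSH cells, such as sema5a (60.1 to 94.8 NR against 2.62 to 9.25) and the netrin receptor dcc (-2.34), and 3 in LH cells, among them sema3e (2.18) and epha8 (3.25); after centring the counts were 6 and 3.

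**Figure D5:**
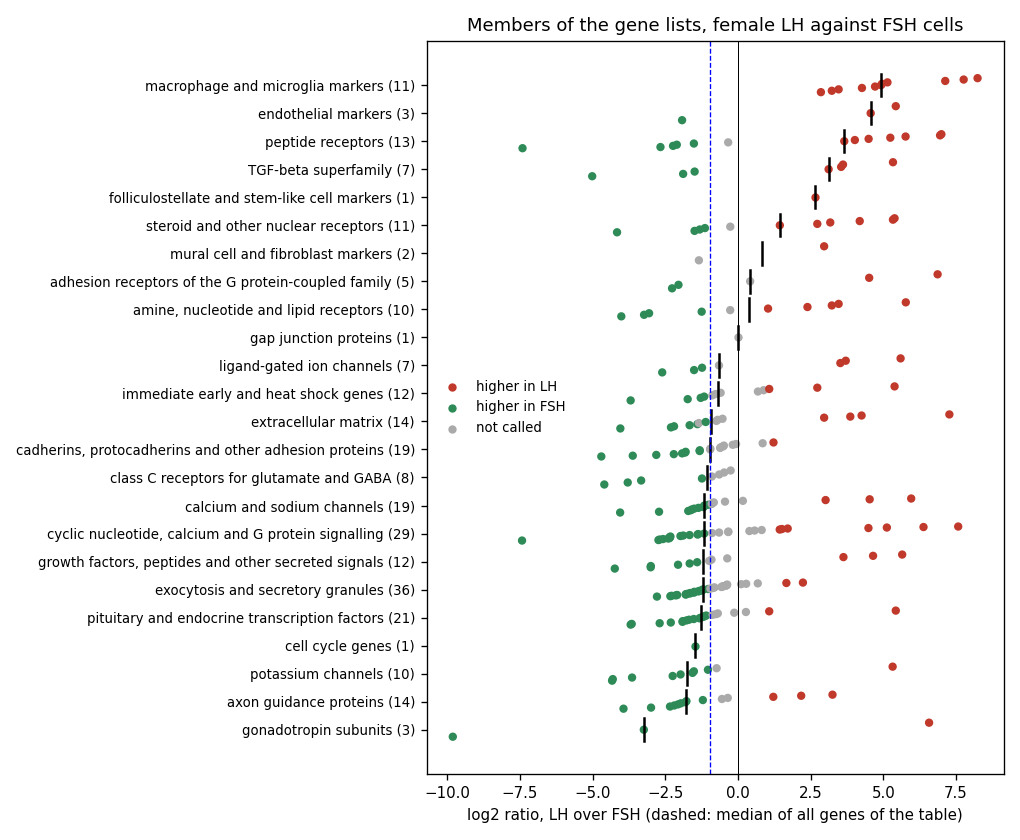
Log2 ratio of LH to FSH cells (x axis) for the members of each gene list in the table, with the number of members in parentheses; red and green points were called higher in LH and FSH cells, grey points were not called, and black bars are list medians. The dashed line is the median of all genes, -0.96; all 11 macrophage markers lie right of 2.85, and the potassium channel median lies at -1.77.

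A number of abundant genes did not separate the types. The 95% interval of the ratio lay within -1 and 1 for 85 of the 1849 genes. Those of the highest level were scg3, cacna1ea, the sodium pump subunit atp1a3b (LOC100712391, 0.01 ± 0.21, interval -0.44 to 0.46), mtcl2 (LOC100707395, -0.35 ± 0.19) and tent5d (-0.35 ± 0.30). After centring, their ratios were 0.48, 1.03, 0.87, 0.51 and 0.51.

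The genes closest to each beta subunit in pattern were found by the correlation of log2(NR + 1) across the 12 female libraries, given as a description, since the points share 3 groups of libraries. Closest to lhb were LOC100698683 (r = 0.96; 120.1, 121, 107 and 106 NR in LH, 35.1 to 40.8 in FSH and 24.7 to 39.3 in negative libraries), rin2, a Ras and Rab interactor (0.95), and LOC102077685, LOC102083321 and LOC100707031 (0.94 to 0.95). All were near the negative level in FSH cells, with log2 ratios of FSH to negative between -0.59 and 0.60. They thus belong to a smaller set of 96 of the 453 genes, in which LH cells exceeded the negative fraction and FSH cells were not called below it. The choice by likeness to lhb, itself low in FSH and negative libraries, favours such genes, so their membership is no separate result. Closest to fshb were stard10, a lipid transfer protein (0.99; 332, 306, 279 and 372 NR in FSH against 86.6 to 116 in LH libraries), crebrf (0.99), LOC100690188 (0.98), cacna2d1 (0.98) and tgfb1a (0.98).

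Among genes in the tables of both sexes, the same contrast in the male libraries was mostly of the same direction. These genes had been selected over the negative fraction in each sex, so the agreement covers only genes selected in both. Among 1309 genes in the tables of both sexes, 168 were higher in LH cells of females, of which 167 had a male ratio above 0, as did 238 (18.2%) of all shared genes. Of 744 higher in FSH cells of females, 739 had a male ratio below 0. The remaining 540 genes are in the female table only, with 285 of the 453 genes higher in LH cells among them, and were not compared. Genes without a male comparison include ccl19a.1, prdm1b, apoeb, c1qb, cd74b, xcr1a.1 and the adhesion receptor B1 gene. The contrast itself differed between the sexes (adjusted p below 0.05 for the interaction, no fold limit) in 4 genes, in 1 of them (0.0764%) with a larger and in 3 (0.229%) with a smaller LH to FSH ratio in females. For col27a1b the log2 ratio was 7.27 in females and 4.83 in males (difference 2.44 ± 0.40, SE, adjusted p = 0.00073). For sptbn4, a spectrin of axons, it was -0.54 and 1.93 (difference -2.47 ± 0.37, adjusted p = 0.00027), and for gabbr1 -1.24 and 2.39 (difference -3.63 ± 0.66, adjusted p = 0.0027). The signs of sptbn4 and gabbr1 were thus opposite on the authors' scale. The female ratio of sptbn4 was not called and reached 0.39 under other scaling. That of gabbr1 was -0.37 after centring and was then not called. For cckbrb the log2 ratio was -7.41 in females and -5.33 in males (difference -2.08 ± 0.47, adjusted p = 0.038). The sexes were normalized separately, the pools of each sex were different fish, and of the 4 genes, col27a1b and sptbn4 were called whichever sort was left out, gabbr1 was not without replicate 2 (adjusted p = 0.055) or 3 (0.074), and cckbrb was not without any 1 of the 4 (0.074 to 0.18).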

How the data were processed

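Libraries of the female LH, FSH and negative fractions (4 each, SMARTer stranded total RNA kit, single-end reads) were used. After trimming with Trim Galore, the authors aligned reads to O_niloticus_UMD_NMBU (STAR 2.201), discarded those of ribosomal or bacterial origin, and counted unique alignments per known gene; the submitters' processing notes list HTSeq and DESeq2. The signal values they deposited are these counts divided by a DESeq2 size factor (NR). Tables of the authors' fold changes and p-values against the negative fraction were not used. All NR were whole multiples (within 0.02 reads) of the value of 1 read, so reads were recovered, with edgeR 4.0.16 calling 453 genes higher in LH and 904 in FSH cells on them, and DESeq2 1.42.0 452 and 910. The chi-square per gene between replicates of LH or FSH cells was 3.49 to 32.7, above sampling noise. In the male table, names were shifted by 1 line against the levels, and were moved back (across genes, r of female and male ratios 0.957 against 0.123 before).

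Here log2(NR + 1) of 12 libraries was fitted with limma 3.58.1 (R 4.3.3, mean-variance trend, no block), with Benjamini-Hochberg adjustment over 1849 genes, or 1309 for the sex difference. Replicate numbers were taken to mark shared pools, which the study's methods do not state. Same-numbered LH and FSH libraries deviated from their group means with correlations of 0.18, 0.00, 0.14 and 0.02. Where all libraries of a group were at or below 3 reads, a fold is a lower bound: the mean NR of the other group over the mean of that level (3.88 NR in FSH, 3.53 in LH cells). Named genes are the subunits, the 10 largest ratios per direction among called genes with libraries that do not overlap and a mean of at least 20 NR, up to 5 called genes per direction and 3 others of each of 29 lists, genes named in the study, 5 abundant genes of equal level, 5 per direction for the sex difference and 5 per pattern; some are given as counts only. The members and lists were chosen with earlier results of these data known. From the lists, 3 entries were removed, a receptor caught by the name of its ligand and metabotropic receptors among ligand-gated channels; other entries caught by name stayed. Names and positions come from RefSeq for the same assembly, which matched 1583 genes, and from the study's tables for products. Scripts were tested on simulated data. Python 3.11.15 was used. The result of 1 gene is not reported here.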

Additional observations from a re-analysis of the deposited data

Results flagged for a closer look

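The LH to FSH contrast differed between females and males in 4 genes, by the interaction of sex and cell type. The female minus male difference of the log2 ratio was 2.44 in col27a1b, which is higher in LH cells of both sexes, and -2.08 in cckbrb, which is higher in FSH cells of both. It was -3.63 in gabbr1 and -2.47 in sptbn4, whose ratios had opposite signs in the sexes on the authors' scale. The female ratio of sptbn4 was not called, and its sign turned under other scaling. For gabbr1 the female FSH libraries are themselves uneven, with replicate 1 at 320.3 NR and the others at 108 to 142.

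In 18 of 238 groups of 4 libraries searched over the genes named here, 1 library stood apart from the other 3 by more than Dixon's 95% limit, where chance gives about 1 in 20. LH replicate 2 was the one apart, and the highest of its group, for gjd2 (609.9 NR), gabbr1a (253), mtcl2 (1175), ptger1a (122) and pcp4 (38). LH replicate 1 was apart for fgfr4 (137 NR), LOC102083321 (32.8) and LOC100710271 (0.73, the lowest), LH replicate 3 for gabrb2 (25.5) and neurod1 (286, the lowest), and LH replicate 4 for chgb (265) and sema5a (9.25). Among FSH libraries, replicate 4 was apart and highest for scg2b (2999.7 NR), scg3 (3176), nr4a3 (600.3) and kdrl (16.3), replicate 2 for gria4a (63.9), and replicate 1 for gabbr1. Without the library that stood apart, the calls of LOC100710271 (log2 ratio -1.14) and gabbr1 (-0.90) were lost, and those of the other genes called were kept.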

How the results depend on the processing

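The count of genes higher in LH cells was 398 to 510 under pseudocounts of 0.5 and 5, a minimum mean of 10 NR, the 8 LH and FSH libraries alone, other scaling, edgeR, DESeq2 and the left-out libraries (445 to 453 for the latter), beside 453. The count higher in FSH cells, 880, fell to 298 after centring and 283 with TMM over the table's genes, and was 801 to 912 under the other settings named (812 to 912 with libraries left out). Beyond a log2 ratio of 2 the counts were 388 and 278, and with no limit on the ratio 478 and 1135. The replicate number was also fitted as a block, as fractions of a number were taken to share a pool. With the block 453 and 880 genes were called, 453 and 879 of them in common with the fit without it. No call of a named gene changed. Genes higher in LH cells that exceed the negative fraction numbered 197 to 298 with sorts left out (342 with all) and 55 beyond a log2 ratio of 2, and the genes higher in FSH cells that exceed it 216 beyond that ratio. Genes with LH cells below the negative fraction, 21, were 9 with a pseudocount of 5, 13 to 24 with sorts left out and 3 beyond a log2 ratio of 2. The sex difference counted 1 to 2 genes on each side when sorts were left out, 2 on the larger side with a pseudocount of 0.5, and 2 on each after centring.

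Of 2975 values of 142 named genes under alternatives, 40 changed sign, all in genes not called. Lost calls numbered 66, 16 of them with TMM and 14 after centring, and 3 were gained, 2 in cacna1ea and 1 in col27a1. The calls lost after centring were all of genes higher in FSH cells. They include gria1 (-0.65 after centring), gabrb2 (-0.37), gabbr1 (-0.37), htr1b (-0.38), kcnh6a (-0.70) and syt1 (-0.93). Neurod1 (-0.82), adm2a (-0.54), esr2 (-0.45), ar (-0.63), ara (-0.27), esamb (-1.06) and LOC100710271 (-0.65) are also among them. With TMM and centring the ratio was above 0 in gabbr1a (0.46 and 0.39), drd4-rs (0.67 and 0.60), mtcl2 (0.59 and 0.51), apln (0.55 and 0.50), gabbr2 (0.27 and 0.22), col27a1 (0.18 and 0.12), hnf4a (0.65 and 0.60), npffr2 (0.54 and 0.53), scg3 (0.56 and 0.48), sptbn4 (0.39 and 0.32) and tent5d (0.59 and 0.51). With libraries left out it ranged over 0 in drd4-rs (-0.66 to 0.15), cacna1ea (-0.051 to 0.36), atp1a3b (-0.22 to 0.25), gjd2 (-0.29 to 0.31), hnf4a (-0.54 to 0.091) and tent5d (-0.77 to 0.10).

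Adjusted p-values cover genes selected in these libraries, so counts are not shares of the transcriptome. Genes of few reads have understated ratios on the log2(NR + 1) scale. Levels were not compared between genes, since lengths of transcripts were not used. Besides the genes for which it is stated, the spans of other named genes overlap those of annotated genes. Examples are the putative GnRH II receptor gene (LOC100534508), col27a1b, thbs4a, cd74b and inhbb. What part of their reads came from the overlapping genes was not tested. Reporter, cell type and sorting gate cannot be told apart. Carry-over of other cells was not measured, since the marker lists hold selected genes only.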

Other observations

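Further genes that the study named from these samples, and that, except gcgr among the peptide receptors, are on none of the lists above, added to both directions; since they were chosen on these libraries, they are no independent evidence. Higher in LH cells were the receptor gene gpr1 (115, 24.9, 78.3 and 94.1 NR in LH libraries and 0 in every FSH library, at least 20.1-fold), the glucagon receptor gcgr (37.1, 52.5, 41.9 and 34.5 against 0 to 4.8 NR, 3.66 ± 0.47) and tmtopsb (LOC100702425), a non-visual opsin (23.7 to 53.8 NR against 0). The receptor gene gpr84 (LOC100701533, 11.8 to 21.9 NR against 0), found on myeloid cells of mammals, ccr12a (LOC100708026), a chemokine receptor (11.8 to 49.2 against 0 to 3.48), and LOC100692815 (2.62 to 32.8 NR against 0) were also higher in LH cells. Of these 6 genes, LH replicate 2 was the lowest LH library for gpr1, gpr84, ccr12a and LOC100692815, as it was for the macrophage markers csf1r, apoeb, c1qb, cd74b and xcr1a.1, and the highest for gcgr and tmtopsb. It was also the lowest in 55.6% of all 453 genes higher in LH cells, so the count does not set these genes apart.

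Higher in FSH cells were xirp2a (LOC100698925), an actin-binding protein of muscle (869, 869.5, 1331 and 2865 NR against 47.3, 34.1, 91.1 and 37.8, -4.72 ± 0.36, SE, n = 4), LOC102076330 (397 to 581 against 29.2 to 63, -3.40 ± 0.30), and ndst3 (LOC100695867), an enzyme of heparan sulfate synthesis (404 to 607 against 102 to 162, -1.96 ± 0.26). All 3 also exceeded the negative fraction in LH cells, with log2 ratios of 1.39, 1.89 and 2.73.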
